A study of Mus musculus with 28 samples.

Results

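The genes described here are 10 factors of the mouse pluripotency network, Pou5f1, Nanog, Sox2, Klf4, Klf2, Zfp42, Esrrb, Tfcp2l1, Utf1 and Lin28a, chosen by name from the 22380 protein-coding genes of the mm9 annotation, in which Tfcp2l1 carries the older symbol Tcfcp2l1. They were followed by chromatin immunoprecipitation and sequencing (ChIP-seq) in mesodermal cultures made from mouse embryonic stem cells (ESCs), which were grown as embryoid bodies in serum-free medium for 2 days and then reaggregated for 40 h with Vegf, activin A and Bmp4, to day 4. The cells were Brg1 f/f;Actin-CreER, a line with loxP sites in both copies of Brg1, the ATPase of the BAF chromatin remodelling complex, and a Cre recombinase fused to the estrogen receptor that is expressed constitutively. On day 2 they received 200 nM 4-hydroxytamoxifen (4-OHT), which activates Cre and deletes Brg1, or the solvent tetrahydrofuran (THF) as the control, so control cultures carried the floxed alleles and CreER as well. FLAG ChIP-seq mapped tagged Brg1 in a single condition, for which the labels name neither agent. The labels list the same floxed genotype for it, whereas the study's methods describe a separate ESC line with a FLAG tag on Brg1. The labels also give 3 FLAG replicates where the methods give duplicates, which bears on each count of FLAG lists.

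Pou5f1, Nanog and Sox2 encode the core transcription factors that hold ESCs in the pluripotent state, and Klf4, Klf2, Esrrb, Tfcp2l1 and Zfp42 belong to the naive state of the early epiblast. Utf1 is a chromatin-bound target of Pou5f1 and Sox2, and Lin28a is an RNA-binding protein that blocks let-7 maturation. In the embryo the naive factors are shut off when the epiblast is primed, while Pou5f1, Nanog and Lin28a continue into the primitive streak and Sox2 is kept in the neural lineage. Acetylation of histone H3 lysine 27 (H3K27ac) marks active promoters and enhancers. Trimethylation of the same residue (H3K27me3) is laid down by Polycomb repressive complex 2, of which Suz12 is a core subunit, and a single lysine cannot carry both marks.

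Each of the 17 lists gave the start and end of regions enriched over input in a single replicate, without a score. The measure used throughout is therefore the covered length, the number of base pairs of enriched regions that fell in a window, here within 5 kb of the annotated transcription start site (TSS) unless another window is named. It records how far enrichment passed the caller's threshold along the DNA, not how strong it was, and the read depth behind it is unknown. In a mixed culture, fewer cells with a mark and less of the mark in each cell cannot be told apart by it. The H3K27ac lists held 37590 and 41062 regions in the control and 36000 and 32161 after 4-OHT. The Suz12 lists held 2951 and 2913 regions in the control and 3654 and 4016 after 4-OHT.

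Some lists stood apart from the others of their mark. FLAG replicate 3 held 192 regions against 8021 and 8257 in replicates 1 and 2. In the H3K27me3 series both lists of replicate 1 held narrower regions, with a median width of 250 bp against 350 to 425 bp in the other lists. H3K27me3 regions covered 8.38, 11.01 and 10.03 Mb of the genome in control replicates 1 to 3 and 4.74, 8.99 and 7.62 Mb in the 4-OHT replicates, so each 4-OHT list was shorter than the control list of the same number. The members' differences in H3K27me3 within 5 kb of the TSS are read against this genome-wide shortening and are given with and without replicate 1. Values of other windows and of single regions are given for all replicates only.

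The sequences that carry these results are promoters, each printed as the 250 bases before the TSS in the direction of transcription, and regions enriched in FLAG ChIP-seq. All are mm9 sequence. The promoters of Sox2 (chr3:34548677-34548926, + strand), Klf4 (chr4:55545348-55545597, - strand) and Utf1 (chr7:147129438-147129687, + strand) are shown because H3K27ac around them was longer in both 4-OHT lists. The FLAG region at chr3:34538726-34538850, near Sox2, is the only one within 50 kb of the 10 TSSs in which at least 2 FLAG lists overlapped. In these sequences the capitals mark CpG dinucleotides.
Sox2 promoter: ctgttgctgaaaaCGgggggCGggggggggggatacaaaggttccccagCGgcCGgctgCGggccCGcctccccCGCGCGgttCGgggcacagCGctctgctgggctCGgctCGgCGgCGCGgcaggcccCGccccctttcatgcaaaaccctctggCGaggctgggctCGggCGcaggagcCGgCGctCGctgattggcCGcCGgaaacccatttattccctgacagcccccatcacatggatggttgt
Klf4 promoter: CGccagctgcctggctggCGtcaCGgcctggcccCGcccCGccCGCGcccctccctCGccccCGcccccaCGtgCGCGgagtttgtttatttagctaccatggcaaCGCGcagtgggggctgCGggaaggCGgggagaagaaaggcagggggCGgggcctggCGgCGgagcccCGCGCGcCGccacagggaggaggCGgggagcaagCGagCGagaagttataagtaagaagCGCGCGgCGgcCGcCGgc
Utf1 promoter: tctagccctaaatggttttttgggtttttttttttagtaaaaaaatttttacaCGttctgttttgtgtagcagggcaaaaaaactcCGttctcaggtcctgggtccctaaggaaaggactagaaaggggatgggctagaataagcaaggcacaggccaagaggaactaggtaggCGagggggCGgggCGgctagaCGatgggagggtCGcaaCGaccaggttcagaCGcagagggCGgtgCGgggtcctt
Sox2 FLAG region: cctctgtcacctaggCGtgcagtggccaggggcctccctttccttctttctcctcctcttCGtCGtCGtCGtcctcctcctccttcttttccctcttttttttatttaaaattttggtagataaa

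The Sox2 and Klf4 promoters held 25 and 32 CpGs in 250 bases, more than 88.0% and 94.8% of all promoters, and that of Klf2 also held 32. Utf1 held 11, Tfcp2l1 16 and Zfp42 9, while Pou5f1 held 7, Esrrb and Lin28a 6 each and Nanog 3. Sox2, Klf4 and Klf2 also carried Polycomb marks, as described below, and so did Utf1, whose CpG count exceeded that of 56.0% of all promoters. A further FLAG region upstream of Nanog (chr6:122652426-122652625, replicate 2 only) and the Zfp42 promoter (chr8:44392364-44392613, - strand) were chosen after their values were seen, the first as the widest FLAG region near Nanog and the second for its motifs. Capitals mark CpGs in the former and motif matches in the latter.
Nanog FLAG region: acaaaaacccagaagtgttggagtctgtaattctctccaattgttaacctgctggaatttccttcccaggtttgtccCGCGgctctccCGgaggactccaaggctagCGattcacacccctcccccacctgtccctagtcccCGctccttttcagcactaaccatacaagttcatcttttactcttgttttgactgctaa
Zfp42 promoter: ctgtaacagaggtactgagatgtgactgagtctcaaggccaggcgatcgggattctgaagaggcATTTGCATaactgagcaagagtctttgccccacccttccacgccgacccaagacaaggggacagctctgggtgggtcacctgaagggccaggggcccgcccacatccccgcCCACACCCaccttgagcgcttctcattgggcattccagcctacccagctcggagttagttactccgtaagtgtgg

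The motifs searched, on both strands, were the octamer ATGCAAAT bound by POU factors, the Sox motif ACAATGG, the Esrrb motif AAGGTCA, the Klf motif GGGTGTGG, the T-box motif AGGTGTGA, the GATA motif AGATAAG and the Fox motif TGTTTAC. Of the 10 member promoters, that of Zfp42 was the only one with a match. It held the octamer and the Klf motif, both on the strand opposite to the gene and without overlap, where 1.62% and 3.24% of all 250-base promoters hold each. Neither printed FLAG region held any of these letters.

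In control cultures the 10 genes differed in the combination of marks near the TSS, as shown in the plot of covered length by list. H3K27ac was present near the TSS in both control lists for 7 genes, against 47.7% of all protein-coding genes, and H3K27me3 in all 3 control lists for 4 genes, against 11.8%. Suz12 was present in both control lists for the same 4 genes, Sox2, Klf4, Klf2 and Utf1, against 6.03% of all genes. All 4 carried the 3 marks together, a combination found at 0.836% of protein-coding genes. It was not particular to the members among the gene lists described below. The combination was found at 4 of 19 primitive streak and mesoderm genes and 3 of 11 endoderm and extraembryonic genes. It was also found at 2 of 20 further pluripotency genes, 1 of 9 epiblast genes and 1 of 13 neural genes. After 4-OHT a TSS region was in every H3K27ac list for 8 of the 10 members (48.2% of all genes), with Zfp42 added. Regions of H3K27me3 (9.08%) and Suz12 (7.91%) were in every list for the same 4 members. The H3K27me3 count after 4-OHT fell to 2 when regions under 200 bp were dropped. Pou5f1, Nanog and Lin28a carried H3K27ac with no H3K27me3 or Suz12 region in any list within 5 kb, a state shared by 41.8% of all genes by their control lists. Zfp42, Esrrb and Tfcp2l1 had no TSS region of H3K27ac in both control lists. Of these, Zfp42 had such a region in a single control list, and Tfcp2l1 had H3K27me3 in some control lists only.

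**Figure D1:**
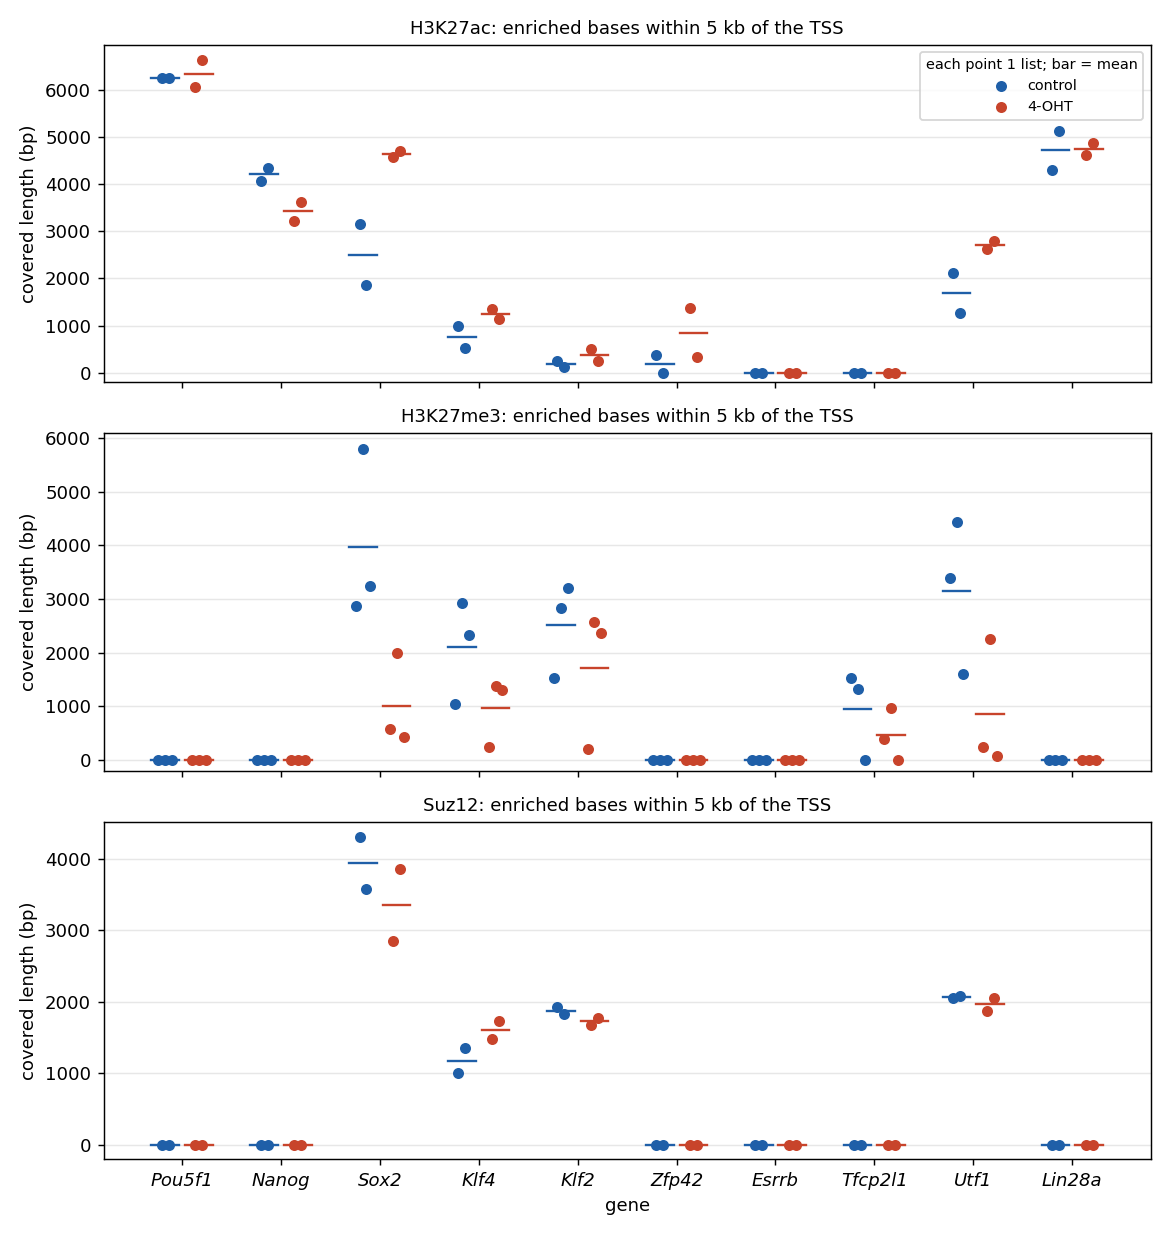
Covered length (bp) within 5 kb of the TSS of each gene in the control and 4-OHT lists of H3K27ac, H3K27me3 and Suz12; each point is 1 list and each bar a group mean. Sox2, Klf4, Klf2 and Utf1 have points above 0 in all 3 panels, while Pou5f1, Nanog and Lin28a do so for H3K27ac alone.

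Pou5f1 (chr17:35642982-35647721, + strand), which encodes Oct4, lay in a broad H3K27ac domain. Its covered length was 6250 and 6250 bp in the control lists and 6050 and 6625 bp after 4-OHT. The 4-OHT values lay on either side of the control values, and the difference was 0.02 ± 0.07 on the log2(bp + 25) scale (SE, adjusted p = 0.881, limma). The mean covered length of the control lists in this window was longer than at 99.0% of the 11364 genes tested. The domain ran from upstream of the gene into it. Within the gene body it covered 1744 and 1769 bp in the control and 2194 and 2269 bp after 4-OHT, so its downstream part was longer in both 4-OHT lists (exact permutation test, two-sided, p = 0.333, the smallest that 2 lists against 2 can give). A FLAG region of 25 bp in replicate 1 lay in this domain 0.39 kb upstream of the TSS. One of 300 bp in replicate 2, centred 1.89 kb downstream, lay at its edge, almost wholly beyond the control domain. The nearest Polycomb region was about 36 kb upstream, where H3K27me3 covered 900, 1650 and 1150 bp in the control and 300, 1200 and 1150 bp after 4-OHT, with overlapping groups, and all 4 Suz12 lists also had a region.

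Nanog (chr6:122657507-122664651, + strand), a homeobox factor, had 2 H3K27ac regions within 5 kb and a further one just past the end of the gene. Together the first 2 and smaller ones covered 4069 and 4344 bp in the control and 3219 and 3619 bp after 4-OHT. Both 4-OHT lists lay below both control lists, with a log2 difference of -0.30 ± 0.09 (SE, unadjusted p = 0.0322, adjusted p = 0.204, limma). The upstream region, centred 4.34 kb before the TSS, covered 2925 and 2975 bp in the control against 2425 and 2650 bp. The promoter region covered 1925 and 1975 bp against 1275 and 1450 bp. By contrast the region centred 8.27 kb from the TSS, beyond all but the end of the last exon, covered 2275 and 2500 bp against 2275 and 2425 bp, and these groups overlapped. FLAG replicate 2 had 4 regions in the upstream element, of 200, 25, 75 and 50 bp, and neither of the other replicates had any.

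Lin28a (chr4:133559245-133574756, - strand) kept a similar covered length at its TSS, with 4300 and 5125 bp in the control and 4625 and 4875 bp after 4-OHT (log2 difference 0.02 ± 0.11, SE, adjusted p = 0.934, limma). Intergenic regions far upstream differed more. The region 42.1 kb upstream of the TSS, nearer to Aim1l than to Lin28a, covered 2250 and 3575 bp in the control and 850 and 525 bp after 4-OHT. The region 29.5 kb upstream covered 675 and 800 bp against 350 and 375 bp. Both were shorter in each 4-OHT list than in either control list. FLAG regions of 125 bp (replicate 1) and 150 bp (replicate 2) lay 2.49 kb downstream and 0.32 kb upstream of the TSS and did not overlap.

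**Figure D2:**
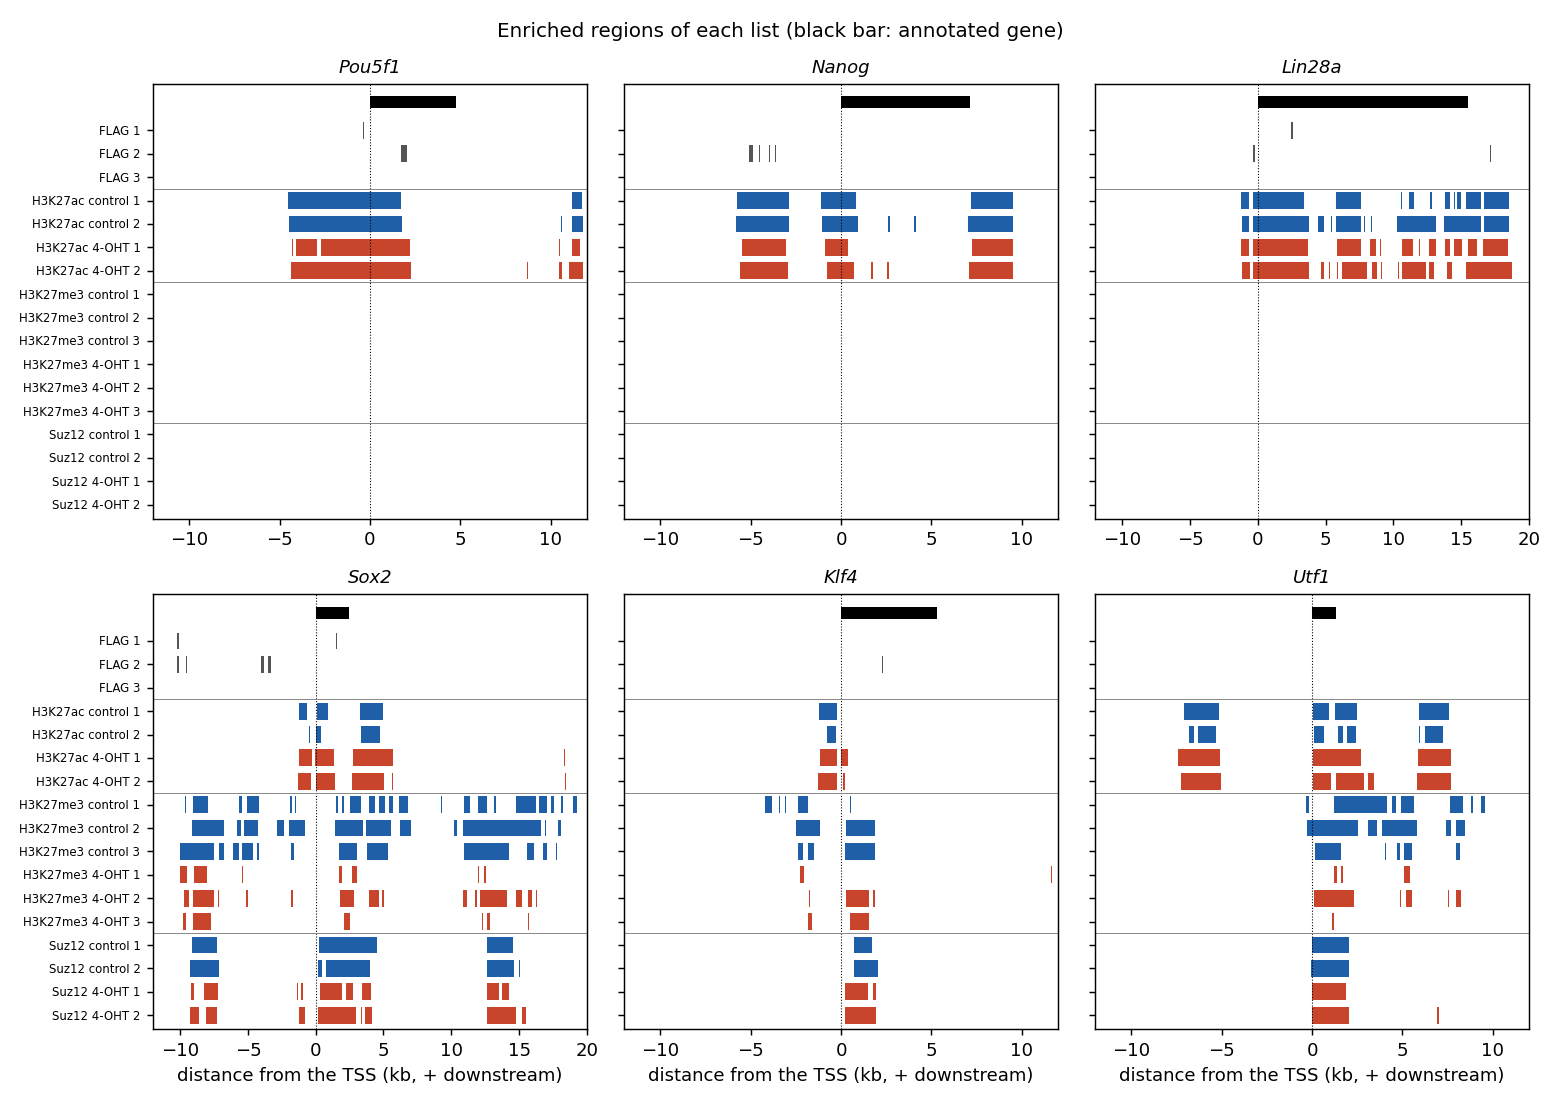
Enriched regions of each of the 17 lists around 6 genes, against distance from the TSS (kb, positive downstream), with control lists in blue, 4-OHT lists in red, FLAG lists in grey and the annotated gene in black. Within the span drawn, Pou5f1, Nanog and Lin28a show H3K27ac but no H3K27me3 or Suz12 regions, and at Sox2 the H3K27me3 rows are sparser after 4-OHT while the H3K27ac rows are longer.

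Sox2 (chr3:34548927-34551383, + strand), an HMG-box factor and partner of Oct4, had the longest mean H3K27me3 and Suz12 coverage near its TSS of the 10 genes in the control and differed between the conditions in both marks of H3K27. H3K27ac covered 3150 and 1850 bp in the control and 4577 and 4702 bp after 4-OHT. The groups did not overlap, and the mean was 1.86-fold higher after 4-OHT, with a log2 difference of 0.93 ± 0.29 (SE, unadjusted p = 0.0404, adjusted p = 0.223, limma). H3K27me3 covered 2876, 5801 and 3251 bp in the control and 575, 2002 and 425 bp after 4-OHT. All 3 4-OHT lists lay below all 3 control lists and each below its same-numbered control, which gave p = 0.1 in the two-sided exact permutation test, the smallest that 3 lists against 3 can give. The log2 difference was -2.22 ± 0.62 (SE, unadjusted p = 0.00644, adjusted p = 0.649, limma), and without both lists of replicate 1 it was -2.19 ± 0.87 (adjusted p = 0.328, limma). With covered lengths scaled to the total of each list it was -1.73 ± 0.51 (adjusted p = 0.760, limma). In a window of 2.5 kb the log2 differences were -1.30 for H3K27me3 and 1.58 for H3K27ac.

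The difference at Sox2 extended beyond the TSS. H3K27ac was longer in both 4-OHT lists at the promoter, in the gene and at a region centred 4.20 kb downstream of the TSS in an exon of Sox2ot, which covered 1750 and 1425 bp in the control and 2950 and 2475 bp after 4-OHT. H3K27me3 within 50 kb covered 10400, 16450 and 11550 bp in the control and 2325, 7375 and 2475 bp after 4-OHT, again without overlap. The widest H3K27me3 region, centred 13.99 kb downstream, covered 3350, 5825 and 4175 bp against 150, 3225 and 425 bp. Regions centred 5.75, 4.78 and 1.35 kb before the TSS and 4.70 kb downstream were also shorter in every 4-OHT list than in any control list. Other stretches overlapped between the groups. In the gene body H3K27me3 covered 200, 1008 and 758 bp against 200, 683 and 333 bp (exact permutation test, two-sided, p = 0.5). The region centred 2.46 kb downstream covered 1000, 2025 and 1325 bp against 575, 1050 and 425 bp. The region centred 8.39 kb before the TSS covered 1150, 2325 and 2950 bp against 1475, 1925 and 1625 bp.

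Suz12 near the Sox2 TSS covered 4300 and 3575 bp in the control and 2850 and 3850 bp after 4-OHT, and the groups overlapped (log2 difference -0.24 ± 0.20, SE, adjusted p = 0.627, limma). By region the order varied. The main Suz12 region, centred 2.35 kb downstream, covered 4300 and 3575 bp against 2800 and 3400 bp. The one 8.20 kb upstream covered 1850 and 2100 bp against 1300 and 1475 bp, and both were shorter in each 4-OHT list. The region centred 13.7 kb downstream covered 1900 and 1950 bp against 1375 and 2150 bp, and these groups overlapped. A region 0.98 kb upstream was absent from the control lists and covered 25 and 450 bp after 4-OHT. Bases in all control lists of both marks were shared between H3K27ac and Suz12 over 825 bp, and between H3K27ac and H3K27me3 over 550 bp. After 4-OHT the first overlap was 1525 bp and the second 0 bp, since no base within 5 kb was in all 3 H3K27me3 lists. The printed FLAG region, 10.1 kb upstream of the TSS and within 2.5 kb of the annotated start of Mir1897, covered 125 bp in replicate 1 and 50 bp in replicate 2. It lay just outside the upstream H3K27me3 region and in no H3K27ac region. The other FLAG regions near Sox2 were in single lists, namely 25, 200 and 250 bp of replicate 2 at 9.56, 3.90 and 3.43 kb upstream and 75 bp of replicate 1 at 1.54 kb downstream.

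Utf1 (chr7:147129688-147131011, + strand) showed the same arrangement as Sox2 with more overlap. H3K27ac covered 2125 and 1275 bp in the control and 2625 and 2800 bp after 4-OHT, so both 4-OHT lists lay above both control lists (log2 difference 0.71 ± 0.28, SE, adjusted p = 0.285, limma). H3K27me3 covered 3388, 4438 and 1600 bp in the control and 250, 2250 and 75 bp after 4-OHT. Each 4-OHT list was shorter than the control of its number, but replicate 2 after 4-OHT exceeded control replicate 3, so the groups overlapped (log2 difference -2.88 ± 1.07, SE, unadjusted p = 0.0256, adjusted p = 0.649, limma). Without replicate 1 the difference was -2.50 ± 1.77 (SE, adjusted p = 0.481, limma). With 1 list left out at a time it ranged from -4.14 (without 4-OHT replicate 2) to -1.88 (without 4-OHT replicate 3). With regions of at least 200 bp it was -4.63. Suz12 covered 2050 and 2075 bp against 1875 and 2050 bp, which also overlapped. H3K27ac and Suz12 shared 900 bp in the control and 1525 bp after 4-OHT.

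The H3K27ac around Utf1 reached well beyond its promoter. Within 50 kb the mean covered length was 6850 ± 2828 bp in the control (SD, n = 2) and 11813 ± 654 bp after 4-OHT (SD, n = 2), and the groups did not overlap. A region centred 27.4 kb downstream, in an exon of 6430531B16Rik, covered 1975 and 1100 bp against 3075 and 3000 bp. The region 6.25 kb upstream, in an exon of Kndc1, covered 1925 and 1225 bp against 2325 and 2200 bp. No FLAG list had a region within 50 kb of Utf1.

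Klf4 (chr4:55540013-55545347, - strand) and Klf2 (chr8:74842932-74845555, + strand), zinc-finger factors of the Krüppel family, carried short H3K27ac regions beside longer Polycomb regions. At Klf4 H3K27ac covered 1000 and 525 bp in the control and 1350 and 1150 bp after 4-OHT, without overlap (log2 difference 0.76 ± 0.37, SE, adjusted p = 0.339, limma). Part of this was a region just inside the gene that the control lists lacked and that covered 375 and 125 bp after 4-OHT, across the printed promoter from the main acetylated region. H3K27me3 at Klf4 covered 1050, 2925 and 2325 bp in the control and 250, 1375 and 1300 bp after 4-OHT. Each 4-OHT list was shorter than its same-numbered control and the groups overlapped (log2 difference -1.29 ± 0.75, SE, adjusted p = 0.656, limma). Without replicate 1 it was -0.95 ± 0.20 (SE, adjusted p = 0.184, limma), and with 4-OHT replicate 1 alone left out it was -0.52. Suz12 covered 1000 and 1350 bp against 1475 and 1725 bp and was longer in both 4-OHT lists, the opposite order to H3K27me3. No base at Klf4 or Klf2 was in all H3K27ac lists and all H3K27me3 or Suz12 lists of a condition.

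At Klf2 H3K27ac covered 250 and 125 bp in the control and 500 and 250 bp after 4-OHT, and the groups touched at 250 bp. An intergenic region 7.84 kb upstream covered 125 and 75 bp against 500 and 325 bp. H3K27me3 covered 1525, 2825 and 3200 bp in the control and 200, 2575 and 2375 bp after 4-OHT, again lower in each numbered pair with overlapping groups. The log2 difference of -1.11 became -0.28 ± 0.13 without both lists of replicate 1 (SE, adjusted p = 0.366, limma), and 0.043 with 4-OHT replicate 1 alone left out. Suz12 covered 1925 and 1825 bp against 1675 and 1775 bp, lower in both 4-OHT lists by a small margin (log2 difference -0.12 ± 0.11, SE, adjusted p = 0.645, limma). The FLAG lists had a region of 50 bp in replicate 2 at Klf4 and none at Klf2.

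Zfp42 (chr8:44380422-44392363, - strand), a zinc-finger protein also known as Rex1 and a standard marker of naive cells, had little enrichment of any kind. H3K27ac covered 375 and 0 bp in the control and 1375 and 325 bp after 4-OHT. These groups overlapped, and the log2 difference of 2.81 ± 1.72 (SE, adjusted p = 0.406, limma) rested on a control list at 0. The region nearest to the TSS, present in 4-OHT replicate 1 alone, ended just downstream of the printed promoter with its octamer and Klf motif. No H3K27me3, Suz12 or FLAG list had a region within 50 kb of Zfp42.

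Esrrb (chr12:87702067-87862578, + strand), an orphan nuclear receptor, had no region of any list within 5 kb of its 5' end, and its marks lay inside the gene, as the map of the locus shows. A pair of intronic H3K27ac regions was present in all 4 lists. The one at 34.4 kb from the 5' end covered 1625 and 1450 bp in the control and 1550 and 1425 bp after 4-OHT, with overlapping groups. The one at 37.8 kb covered 1375 and 1325 bp against 925 and 525 bp and was shorter in both 4-OHT lists. FLAG replicate 1 had a region of 25 bp in this second element. A Polycomb domain lay at 61.8 kb, by an internal TSS of Esrrb, where H3K27me3 covered 3025, 4700 and 4275 bp in the control and 2175, 4775 and 4000 bp after 4-OHT. Suz12 there covered 2050 and 2350 bp against 2025 and 2450 bp, and the groups of both marks overlapped. A shorter H3K27me3 region at 109.2 kb, by another internal TSS and without Suz12, covered 775, 1325 and 800 bp in the control and 275, 350 and 600 bp after 4-OHT. There all 3 4-OHT lists lay below all 3 control lists.

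**Figure D3:**
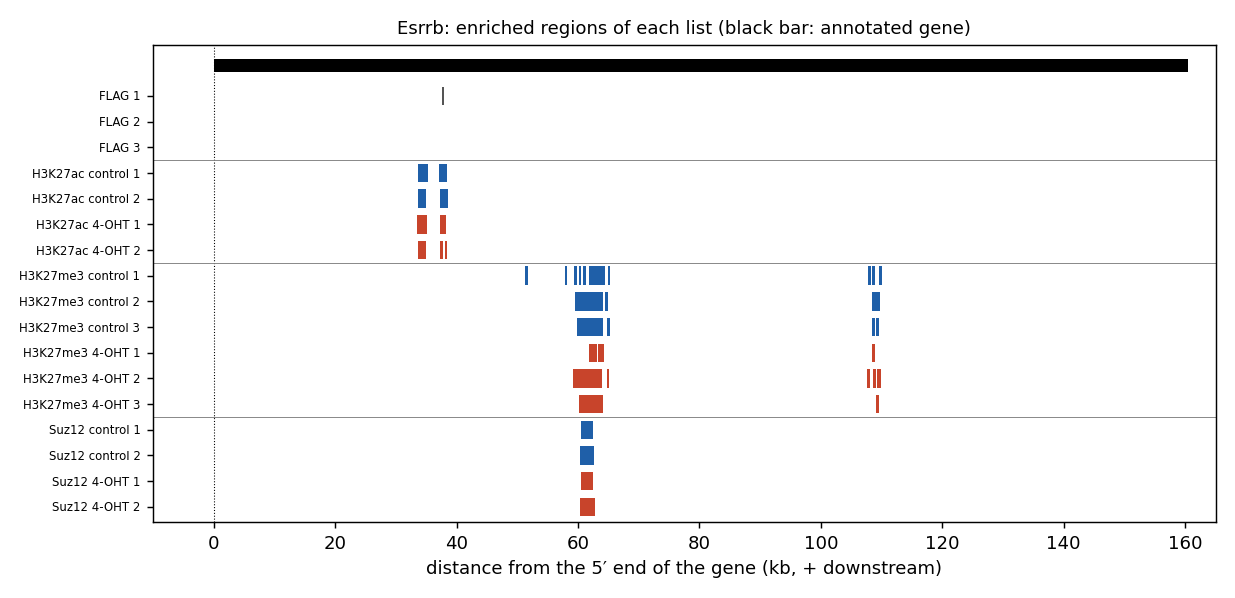
Enriched regions of each of the 17 lists along Esrrb, against distance from the 5' end of the gene (kb), with control lists in blue, 4-OHT lists in red and the gene in black. H3K27ac lies at 34.4 and 37.8 kb, H3K27me3 with Suz12 at 61.8 kb and H3K27me3 alone at 109.2 kb, with no region in any list near 0.

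Tfcp2l1 (chr1:120524522-120581744, + strand), a CP2-family factor, carried H3K27me3 near its TSS in some lists only. It covered 1525, 1325 and 0 bp in the control and 400, 975 and 0 bp after 4-OHT, so replicate 3 had none in either condition. The log2 difference was -0.77 ± 2.03 (SE, adjusted p = 0.875, limma), and -0.22 without replicate 1. Suz12 had no region within 5 kb. An intronic H3K27ac region 20.2 kb into the gene covered 750 and 450 bp in the control and 950 and 875 bp after 4-OHT, longer in both 4-OHT lists. No FLAG list had a region within 50 kb.

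Of the 10 genes, 8 had H3K27ac in at least 2 lists and were tested. Sox2, Klf4 and Utf1 were longer without overlap after 4-OHT, where 42.1% of the 11364 tested genes were, and Nanog was shorter, where 13.3% were. The 3 of 8 members that were longer thus made up a share close to that of all genes. By limma with Benjamini-Hochberg adjustment no member passed an adjusted p of 0.05, and 0.0% of all tested genes did, with 2373 genes (20.9%) at an unadjusted p under 0.05. The median log2 difference of the 8 members was 0.74, against 0.15 for all tested genes. Relative to that median, Zfp42 stood at 2.66, Sox2 at 0.78, Klf2 at 0.75, Klf4 at 0.61 and Utf1 at 0.56, while Pou5f1 stood at -0.13, Lin28a at -0.13 and Nanog at -0.45. Without control replicate 2 the log2 difference was smaller, at 0.55 for Sox2, 0.31 for Klf4, 0.35 for Utf1, 0.47 for Klf2 and 0.81 for Zfp42.

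For H3K27me3, Sox2 was the only one of the 5 members tested whose groups did not overlap, and it was lower, as 14.6% of the 3456 tested genes were, against 0.231% that were higher. With lists scaled to their total covered length these shares were 7.06% and 5.99%, and Sox2 was still lower without overlap. The median log2 difference was -1.29 for the 5 members and -0.66 for all tested genes, and without both lists of replicate 1 these medians were -0.95 and -0.38. No member or other gene passed the adjusted threshold (0.0%), and 225 genes (6.51%) had an unadjusted p under 0.05, or 502 genes without replicate 1. Utf1 stood lower than all but 6.19% of the tested genes and Sox2 lower than all but 13%, while Tfcp2l1 stood near the middle at 45.3%. Among the 1223 genes tested for both marks, 8.5% were longer in H3K27ac and shorter in H3K27me3 without overlap in either, and Sox2 was the single member among them.

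For Suz12, Klf4 was the member that was longer after 4-OHT, as were 38.6% of the 1902 tested genes, and Klf2 the member that was shorter, as were 6.94%. With lists scaled to their total covered length, Klf2 overlapped and Sox2 was the shorter member. The shares longer and shorter were then 36.9% and 16.0%. The 4 tested members had a median log2 difference of -0.10 against 0.29 for all tested genes, a background that became -0.02 without 4-OHT replicate 2 and 0.42 without 4-OHT replicate 1. Here too 0.0% passed the adjusted threshold, with 358 genes (18.8%) at an unadjusted p under 0.05. FLAG regions in at least 2 of 3 lists lay within 5 kb of 3 members, Pou5f1, Sox2 and Lin28a, against 4.0% of all genes, but at none of these 3 windows did regions of different replicates overlap. In any list they lay near 5 members, with Nanog and Klf4 added, against 14% of all genes.

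**Figure D4:**
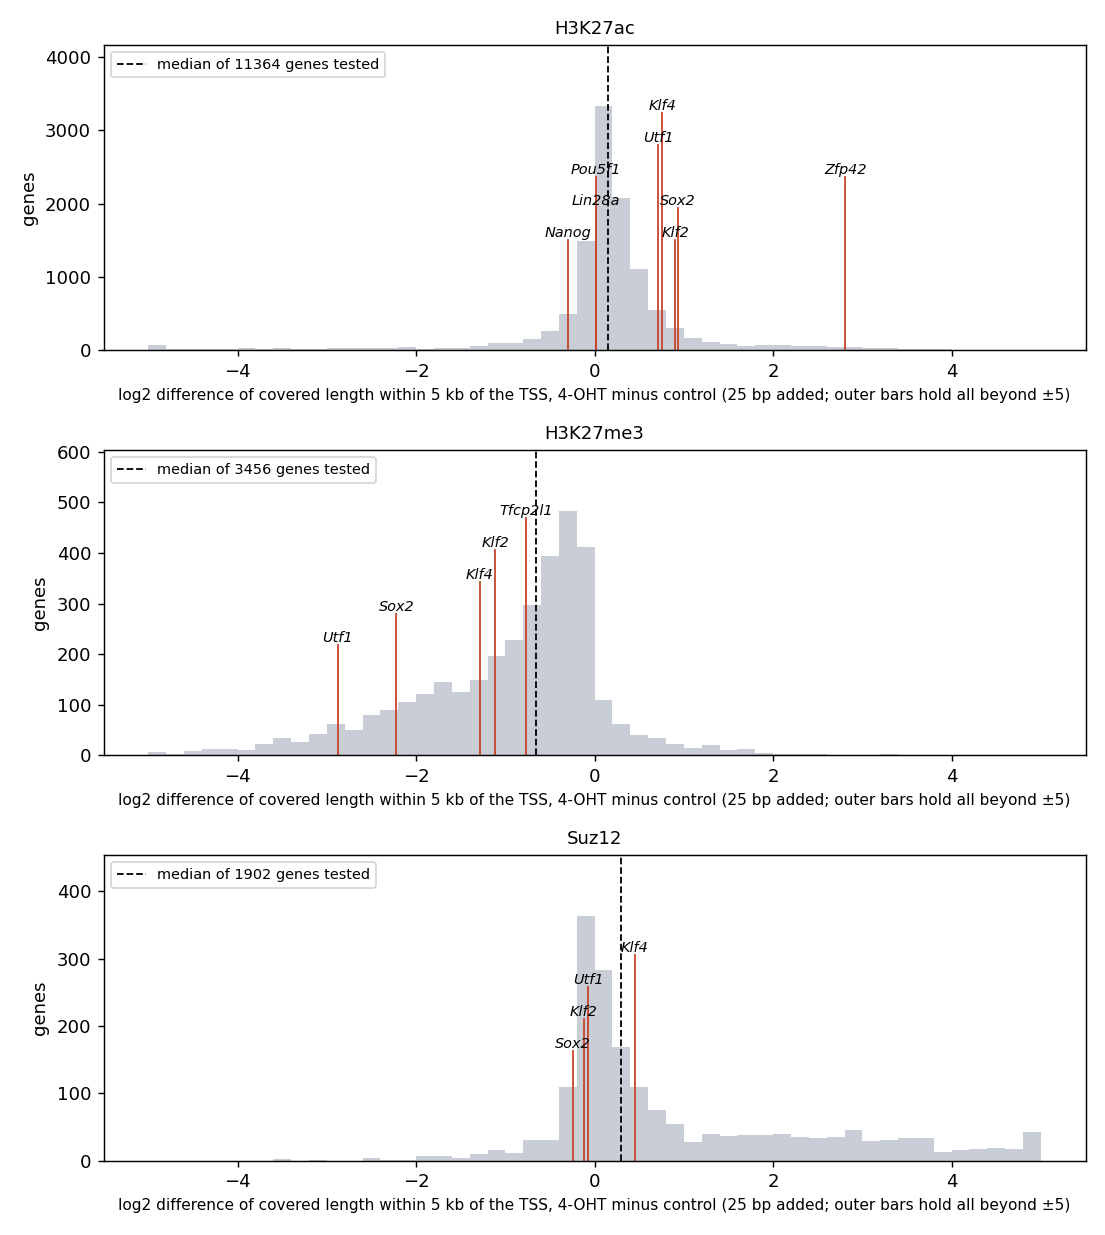
Histograms of the log2 difference in covered length within 5 kb of the TSS (4-OHT minus control, 25 bp added) over all tested genes for H3K27ac, H3K27me3 and Suz12, with the tested members as red lines and the median of all genes dashed. Sox2, Klf4 and Utf1 lie to the right of the H3K27ac median, and Utf1 and Sox2 far to the left in H3K27me3.

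Merged over the control lists, 29 regions present in both lie within 50 kb of the 10 TSSs, of which 13 are more than 2.5 kb from any annotated TSS, and all 29 were overlapped by a 4-OHT region. Of the 49 in either control list, 43 (87.8%) were overlapped and 6 were not. Over the genome, 80.2% of the 27332 regions in both control lists were overlapped, and 61.7% of those in either. Of the former, the share was 67.4% far from a TSS and 94.6% near one. When a 4-OHT list had to cover at least 50% of a region's length, 27 of the 29 and 69.6% of the genome's regions met the condition. The median width of those far from a TSS was 1750 bp near the members and 700 bp genome-wide, and of the other 16 it was 1113 bp against 1025 bp, with no test of the difference. Merged over all 4 H3K27ac lists, 28 such regions lay near the members, of which 11 were longer and 5 shorter in both 4-OHT lists without overlap, against 24.3% longer and 40.5% shorter of 26203 in the genome. The 11 were 3 of Sox2 and 5 of Utf1, the Klf2 region at 7.84 kb, the intronic Tfcp2l1 region and the region of Hmgn2 at 51.1 kb from Lin28a. The Lin28a region at 42.1 kb, the Lin28a region at 29.5 kb, the Esrrb region at 37.8 kb and both Nanog regions near the TSS were shorter in each 4-OHT list than in either control list.

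**Figure D5:**
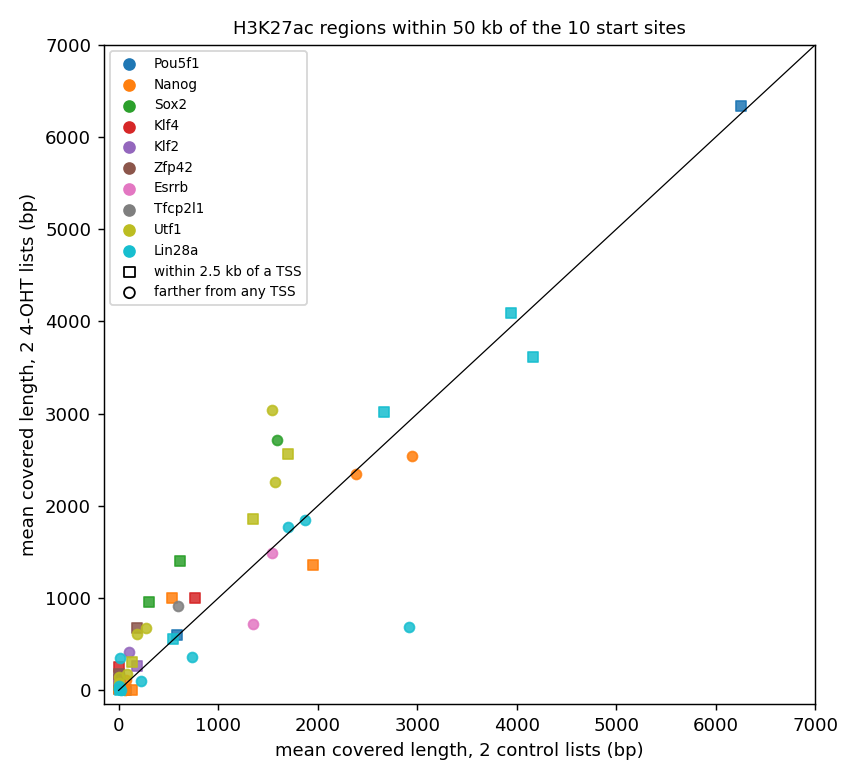
Mean covered length (bp) of each merged H3K27ac region within 50 kb of the 10 TSSs in the 2 control lists (x) and the 2 4-OHT lists (y), coloured by gene, with squares within 2.5 kb of a TSS and circles farther away; the line marks equal values. Regions of Utf1 and Sox2 lie above the line, and the Lin28a region at 42.1 kb lies farthest below it.

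The genes nearest to each member over all 17 lists, by Euclidean distance of log2(bp + 25), were Hnrnpl and Pmaip1 for Pou5f1 (0.512 and 0.633), Moap1 and Ubr7 for Nanog (both 0.454) and Rcor2 and Smad7 for Lin28a (0.316 and 0.420). The Polycomb-marked members were less closely matched. Bhlhe41 and Aim1 were nearest to Sox2 (4.50 and 5.03), Dscaml1 and Esrp2 to Utf1 (3.51 and 3.55), Stac2 and Wbscr17 to Klf4 (1.94 and 2.37) and Dgcr14 and Grwd1 to Klf2 (2.78 and 2.93). Akap5 and Mboat1 were nearest to Tfcp2l1 (1.16 and 1.72). The median distance to all other genes ranged from 12.3 for Tfcp2l1 to 22.2 for Sox2.

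Other genes of the same states gave a setting for these values, and those named here were chosen after their values were seen. Of 20 further pluripotency genes, 8 had H3K27ac in both control lists and 10 were tested, of which Dppa4, Fgf4, Tet2 and Zfp281 were longer and Tbx3, Sall4 and Fbxo15 shorter after 4-OHT without overlap (42.1% and 13.3% of all tested genes), with a median log2 difference of 0.60. Fgf4, a target of Oct4 and Sox2, resembled Sox2 in H3K27ac, with 1100 and 725 bp in the control and 1400 and 1475 bp after 4-OHT. Klf5 and Tet2 were the 2 of 8 tested that were shorter in H3K27me3 (14.6% of all tested genes). Of 9 genes of the primed epiblast, 8 had H3K27ac in both control lists and 8 were tested, with Pou3f1 and Lin28b longer (42.1% of all tested genes), Otx2, Dnmt3a, Zic2 and Cdh1 shorter (13.3%) and a median of -0.12.

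As a check of the label of the cultures, H3K27ac lay near 16 of 19 primitive streak and mesoderm genes in both control lists (47.7% of all genes). It also lay near 8 of 9 epiblast genes and 7 of the 10 members, so this count does not separate the streak from earlier states. Kdr, Wnt3a and Foxa2 had no H3K27ac region within 5 kb in any list and had H3K27me3 in every list. Of the streak and mesoderm genes, 9 of the 16 tested were shorter after 4-OHT without overlap (13.3% of all tested genes). Only Fgf8 was longer (42.1%), and the median log2 difference was -0.55. Mesp1, a regulator of cardiac mesoderm, covered 5227 and 6876 bp in the control and 3576 and 4551 bp after 4-OHT. FLAG regions in at least 2 lists lay near 11 of these 19 genes and 3 of the 10 members (4.0% of all genes). The difference between the lists was not tested.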

How the data were processed

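ChIP-seq of FLAG (3 replicates), H3K27ac (2 control, 2 4-OHT), H3K27me3 (3 and 3) and Suz12 (2 and 2) was used, grouped by sample labels. The authors aligned reads with Bowtie to mm9 and deposited, for each replicate, start and end positions of regions enriched over input (Poissonian model; p threshold 1e-06 and 2-fold over input for FLAG per the labels; 1e-12 for the others per the file headers, read here as a p-value), with no count or signal. Replicates were biological according to the labels.

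Covered base pairs were summed per gene (mm9 genome, GENCODE TSS) within 5 kb and 50 kb of the TSS and in the gene body. Genes with a region in at least 2 lists of a mark were tested with limma 3.58.1 (trend, R 4.3.3) on log2(bp + 25), all genes adjusted together. Single values were tested by two-sided exact permutation of the difference of means, over all splits of the lists (Python 3.11.15, NumPy 2.4.6). On simulated shifts of 2 log2 units in 200 genes, limma recovered 100% for H3K27ac, 48.5% for H3K27me3 and 98.5% for Suz12 (11364, 3456 and 1902 genes), with 5, 7 and 11 false calls. The simulated noise was normal, with a spread smoothed over genes of similar mean, and only genes above the median mean were shifted. In H3K27ac and Suz12 all member differences but that of Zfp42 were smaller than 2 log2 units. These shares therefore do not tell how often differences like those of the members would be found.

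The members, gene lists and tests were chosen with earlier results of these data known. All 10 members were to be named; other lists were given by counts and medians unless genes passed an adjusted p of 0.05. None did, so any named from those lists were chosen after their values were seen. By the same rule the 2 nearest genes by distance were named for members with a region in at least 4 of the 14 histone and Suz12 lists. Alternatives covered the window, the 25 bp offset, the filter, narrow regions, scaling, the replicate block and leaving out lists. H3K27me3 lists of the same number deviated together (r across 3456 genes 0.607, 0.396 and 0.385), so numbers were taken to pair these samples. For H3K27ac r was 0.336, and for Suz12 0.059. The limma and exact tests given for members nevertheless ignore this pairing, which entered only the alternative with a replicate block. In that alternative Sox2 H3K27me3 had an adjusted p of 0.229 (limma). Sox1 and Tfap2c of the gene lists were not analysed.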

Additional observations from a re-analysis of the deposited data

How the results depend on the processing

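Of the alternative values, 97 of those answering a comparison and 219 of those for single members kept their direction and side of the threshold or stayed within 1.5 times the main count. FLAG near members numbered 3 in at least 2 lists, 5 in any list and 0 in all 3 lists, and ranged from 0 to 3 when a replicate was left out. H3K27me3 in every 4-OHT list marked 4 members, and 2 when regions under 200 bp were dropped. H3K27ac regions near members numbered 29, and 49 when either control list sufficed. Without control replicate 1 they numbered 44, and without control replicate 2 43. The number is counted from control lists alone, so alternatives on the 4-OHT side could not change it, yet they are among the 97. For H3K27ac 6 genes of the genome (3 higher, 3 lower) passed limma without a filter, and 34 (2 higher, 32 lower) with scaling to total covered length. For Suz12 72 (all higher) passed with scaling and 187 (185 higher, 2 lower) with regions of at least 200 bp. The cause was not tested, and none of these calls was a member.

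Some small or variable differences reversed. With 1 list left out at a time, the log2 difference ranged from -0.047 to 0.084 for Pou5f1 H3K27ac (below 0 without 4-OHT replicate 2), from -0.11 to 0.14 for Lin28a H3K27ac (-0.02 without 4-OHT replicate 2, lowest without control replicate 1) and from -1.72 to 0.043 for Klf2 H3K27me3 (above 0 without 4-OHT replicate 1). For Tfcp2l1 H3K27me3 it ranged from -2.72 to 0.80 (above 0 without 4-OHT replicate 3, and 0.26 and 0.16 without control replicates 1 and 2). Sox2 Suz12 was 0.11 within 2.5 kb. The replicate block changed no call, with 0 genes passing in each mark and 2844, 653 and 380 at an unadjusted p under 0.05 for H3K27ac, H3K27me3 and Suz12. Scaling moved the median log2 difference of all genes to 0.25, -0.21 and 0.20 in these marks. Scaled, Klf2 H3K27ac became longer (54.3% of all genes) and Sox2 Suz12 shorter (16.0%) without overlap, and Klf2 Suz12 overlapped. The unfiltered H3K27me3 and Suz12 models could not be fitted. Lists without scores or read depth cannot separate a stronger mark from a deeper library.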

Other observations

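Genes of lineages outside the streak were also followed, and no difference between the lists was tested. Of 13 neural genes, H3K27me3 lay within 5 kb of all 13 TSSs in every control list and every 4-OHT list, and Suz12 near 12, whereas H3K27ac was in both control lists at 1, Irx3. Of all genes, 11.8%, 6.03% and 47.7% carried these marks in every control list. The median log2 difference in H3K27me3 was -0.20 over these 13, against -1.29 over the 5 pluripotency factors tested and -0.66 over all tested genes, and without both lists of replicate 1 these were -0.094, -0.95 and -0.38. The epiblast genes stood lowest, at -1.53 over 5 tested and -1.78 without replicate 1. In Suz12, Pax3, Neurog2, Olig2 and Zic1 were shorter after 4-OHT without overlap and none was longer, of 12 tested (6.94% and 38.6% of all tested genes). Neurod1 was longer in H3K27ac, as 1 of 2 tested (42.1% of all tested genes), and shorter in H3K27me3, as 1 of 13 tested (14.6%), without overlap. Both together were found at 8.5% of the genes tested for both marks. Of 11 endoderm and extraembryonic genes, 8 carried H3K27me3 and 8 carried Suz12 in every control list, and 3, Gata6, Hhex and Hand1, carried H3K27ac. Hhex did so over only 25 bp in each control list, the narrowest width of any region. Gata4 and Hhex, factors of the endoderm, were longer in H3K27ac after 4-OHT, 2 of the 4 tested (42.1% of all tested genes). They rose from this floor, with 0 bp in each control list at Gata4. After 4-OHT Gata4 had 250 and 125 bp and Hhex 675 and 625 bp. FLAG regions in at least 2 lists lay near 1 of the 13 neural genes, Irx3, and 0 of the 11 endoderm and extraembryonic genes (4.0% of all genes). These genes were named after their values were seen.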
